A study of Mus musculus with 4 samples.

Results

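The genes described here encode the proteins of the cytosolic ribosome in mouse ID8 ovarian cancer cells. They were chosen by name alone, as rows of the expression table whose symbol is Rpl or Rps followed by a number, or is Rpsa, Rplp0, Rplp1 or Rplp2, without the S6 kinases and the named pseudogenes. The rule found 83 of the 22063 genes in the table, and 80 of them were among the 11448 genes with enough counts to be tested. ID8 is a cell line derived from mouse ovarian surface epithelium. Cells with control shRNA gave 2 libraries (shCtrl). Cells with shRNA against Usp9x, the gene of an enzyme that removes ubiquitin from other proteins, gave the other 2 (shUSP9X). Whether both shUSP9X libraries had the same shRNA is not stated in the labels. All 4 libraries are labelled as ID8 of wild-type genotype, and the labels give no treatment, no shRNA sequence and no statement that the replicates were separate cultures, so p-values measure the spread between these libraries, which may be technical. The library totals were 17232006 and 15611363 for the shCtrl libraries and, in counts as well, 19978889 and 17021261 for the shUSP9X libraries. A low count in such data does not tell fewer cells of a kind from less RNA per cell.

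The cytosolic ribosome joins a small 40S subunit, which reads the mRNA, to a large 60S subunit, which forms the peptide bond. Each subunit needs its proteins in nearly equal numbers, and their mRNAs are among the most abundant in dividing cells. Most of these mRNAs begin with a 5′ terminal oligopyrimidine (TOP) tract, a C followed by a run of C and T, through which mTOR signalling and the protein Larp1 control their translation. Sequencing of polyadenylated RNA, as here, measures the level of the mRNA and not its translation. By subunit, the rule found 31 genes of the 40S subunit, 43 of the 60S subunit, the 3 genes of the P stalk, a flexible arm of the 60S subunit that recruits elongation factors, and 6 genes for paralogs of ribosomal proteins.

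Start sites are shown because mRNAs of these genes are known for their common kind of 5′ end. Windows from 40 bases before to 20 bases from the start onward were taken from the RefSeq promoter table (GRCm38.p6), which held 63 of the 83 genes. Where a gene had several starts, the one nearest to its start in the GENCODE M21 annotation was used, and for the windows printed the sources differed by up to 91 bases. Capitals mark any of the pyrimidine motifs CTCTTT and also CTTTCC and also CTTCCT and also CTTTTC on the sense strand within 30 bases of the start, and the motif TATAA on the sense strand in the 50 bases before it. These letters were chosen after the sequences had been seen, and matches to several of them can overlap. The genes shown include 3 of the largest rises (Rpl28, Rpl37 and Rps15), Rps27, Rpl22 beside its paralog Rpl22l1, and Rpl10.
Rpl28, chr7:4792925-4792984, plus strand: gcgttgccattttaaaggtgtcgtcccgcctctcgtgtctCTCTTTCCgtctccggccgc
Rps27, chr3:90213629-90213688, minus strand: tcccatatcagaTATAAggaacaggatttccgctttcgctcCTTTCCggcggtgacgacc
Rpl37, chr15:5116573-5116632, plus strand: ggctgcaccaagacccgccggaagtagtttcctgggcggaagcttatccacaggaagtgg
Rps15, chr10:80292391-80292450, plus strand: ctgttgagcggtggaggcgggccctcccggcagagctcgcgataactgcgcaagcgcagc
Rpl22, chr4:152325686-152325745, plus strand: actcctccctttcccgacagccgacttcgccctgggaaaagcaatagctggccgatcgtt
Rpl22l1, chr3:28805468-28805527, plus strand: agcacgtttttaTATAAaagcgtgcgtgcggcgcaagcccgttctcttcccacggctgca
Rpl10, chrX:74270776-74270835, plus strand: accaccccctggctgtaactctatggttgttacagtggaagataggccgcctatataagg

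The pyrimidine letters stood near the start in 31 of 75 windows of these genes (41.3%), against 10.6% of the 32851 windows in the table. The letters CCGGAAG, the core recognised by ETS factors such as Gabpa, were found on either strand within the 300 bases around the start in 36.0% of the windows and in 8.86% of all. The letters AAGATGG, part of the sequence bound by Yy1, were found in 12 of the 75 windows and in 6.34% of all, and TATAA in 6.67% and 4.93%. A match of letters is a description of the sequence. The 28 tested genes with the pyrimidine letters had a median log2 fold change of 0.43 between shUSP9X and shCtrl, and the 32 without them 0.42.

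The target of the shRNA was checked first. Usp9x (chromosome X, 13071498 to 13173328) had normalised read counts, scaled to library size (CPM), of 298.1 and 281.6 CPM in shCtrl and 19.7 and 20.5 CPM in shUSP9X. The groups were far apart, and edgeR's quasi-likelihood test gave a log2 fold change of -3.85 with a standard error of 0.06 (adjusted p = 4.7e-26). With the correction for GC content and length described below Usp9x was at -2.265, and with the length implied by the deposited table at -2.462. Of 9 mesothelial and ovarian surface epithelial markers, 8 passed the filter, and Krt7 had 3 counts at most. At an adjusted p under 0.05 in edgeR's test, which 33.8% of all genes tested passed as higher and 33.6% as lower, 4 rose, led by Krt8 (log2 fold change 0.92) and Upk1b (0.68), and 3 fell, with Wt1 at -0.52 and Cdh2 at -0.50. With the correction for GC content and length described below, 3 were higher and 5 lower, beside 36.8% and 27.1% of all genes tested. Krt19 turned from 0.12 to -0.162 (adjusted p = 1.3e-05 by edgeR), and the median of the list went from 0.084 to -0.131. Of 8 leukocyte markers, Adgre1 (0 and 0 in shCtrl, 58 and 59 in shUSP9X), Ptprc (0 and 0, 29 and 18) and Csf1r (0 and 0, 17 and 13) were counted only in the shUSP9X libraries. Cd68, the most abundant of the list, had 74, 68, 118 and 85 counts. Cd3e was at 0 in every library, and Lyz2, Cd79a and S100a8 had 4 counts at most. The list summed to 0.000435 and 0.000442% of the counts in shCtrl and to 0.00113 and 0.00106% in shUSP9X, and its part in the results below was not tested. Of 4 endothelial markers, Pecam1 had 9, 19, 19 and 13 counts and Cdh5 and Kdr were at 0 in every library.

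Nearly all ribosomal protein mRNAs were higher in shUSP9X cells, by a modest amount each. At an adjusted p under 0.05, 73 of the 80 tested genes (91.2%) rose and 3 fell, where 33.8% of all genes tested rose and 33.6% fell. The median log2 fold change was 0.43, a 1.35-fold difference, with quartiles of 0.27 and 0.55, and the median of all genes tested was -0.001. With the correction for GC content and length the median was 0.25, with 63 genes higher and 7 lower, as described below. Both shUSP9X libraries lay above both shCtrl libraries for 75 of the 80 genes, as they did for 41.2% of all genes tested. The rises were small against the cutoff that the study set, a fold change above 1.5 with an unadjusted p under 0.05. At that cutoff 16 genes were higher and none lower, while 10.8% of all genes were higher and 18.7% lower. Of the 65 genes with whole counts in every library 61 rose, and of the 15 with a fractional count in some library 12 rose. The 83 genes lie on 19 chromosomes, with 14 of them on chromosome 7.

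**Figure D1:**
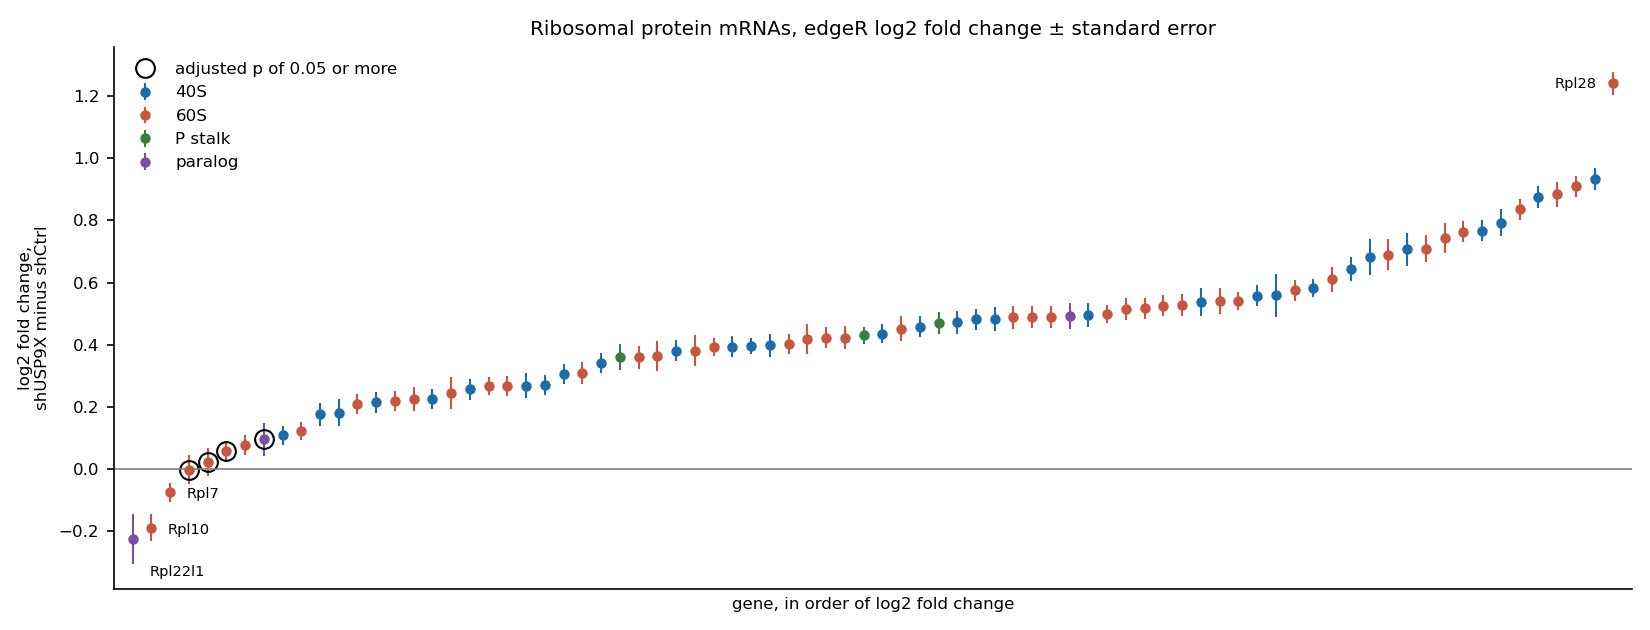
Log2 fold change (shUSP9X minus shCtrl, y axis) with its standard error for the 80 tested genes, in order of that value along the x axis and coloured by subunit. The points run from -0.22 for Rpl22l1 to 1.24 for Rpl28, and black rings mark the 4 genes that did not pass the threshold.

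The amounts added up to a larger share of each library. These mRNAs held 4.75 and 4.70% of all counts in the shCtrl libraries and 6.14 and 6.10% in the shUSP9X libraries. The 2 groups did not overlap, and the means were 4.72 ± 0.034 and 6.12 ± 0.030% (SD, n = 2 each), a difference of 1.40 percentage points. A permutation of 2 libraries against 2 cannot give an exact two-sided p below 0.333, and no other test of this difference was run. The 40S genes went from 1.81 to 2.39%, the 60S genes from 2.54 to 3.26% and the stalk genes from 0.332 to 0.439%. The ratio of 40S counts to 60S counts was 0.703 and 0.722 in shCtrl and 0.729 and 0.737 in shUSP9X, so that it moved much less than either share. The share of the mitochondrially encoded genes, which is part of the same total, was 4.43 ± 0.12% in shCtrl and 2.15 ± 0.0054% in shUSP9X. With those genes left out of the totals, the difference between the groups was 1.31 percentage points.

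**Figure D2:**
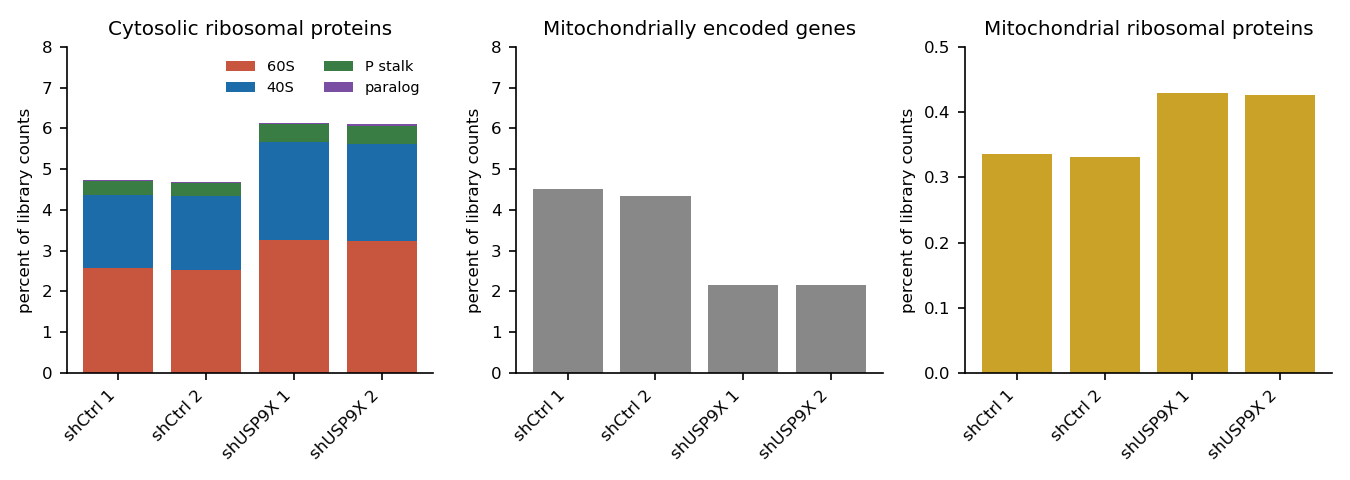
Percent of library counts (y axis) in each of the 4 libraries for the cytosolic ribosomal protein genes stacked by subunit, for mitochondrially encoded genes and for mitochondrial ribosomal protein genes, the last on a shorter axis. The cytosolic bars stand near 4.7% in shCtrl and near 6.1% in shUSP9X, and the mitochondrially encoded bars go the other way.

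In the 40S subunit all 31 genes rose, with a median log2 fold change of 0.46 and a lowest value of 0.11. Rps15, a protein of the 40S head, had 363.5 and 361.9 CPM in shCtrl and 673.8 and 657.4 CPM in shUSP9X, a log2 fold change of 0.88 (standard error 0.04, adjusted p = 9.1e-18 in edgeR's fit). Rps27, a zinc finger protein of the 40S subunit, had 128.5 and 130.6 CPM against 224.5 and 224.1 CPM (log2 fold change 0.79, standard error 0.04). The groups were apart in both genes by much more than the libraries of a group differed. Rps6, the protein phosphorylated by S6 kinases, rose by 0.44 on the log2 scale, and Rps3a1, at the low end, by 0.11. With the correction for GC content and length described below Rps3a1 was at 0.02 (adjusted p = 0.56 by edgeR). The 40S genes then had 26 higher and 2 lower and a median of 0.25. These counts stand beside 33.8% higher and 33.6% lower among all genes tested, or 36.8% and 27.1% with the correction.

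In the 60S subunit 38 of 43 genes rose and 2 fell, with a median log2 fold change of 0.42 and a range of -0.19 to 1.24. With the same correction 32 were higher and 5 lower, and the median was 0.26. Of all genes tested 33.8% rose and 33.6% fell, or 36.8% and 27.1% with the correction. Rpl28, a protein on the surface of the 60S subunit, was the gene with the greatest log2 fold change of the 80. It had 282.3 and 295.1 CPM in shCtrl and 700.6 and 662.4 CPM in shUSP9X. The 2 shUSP9X libraries were 2.36-fold higher, and edgeR's quasi-likelihood test gave a log2 fold change of 1.24 with a standard error of 0.04 (adjusted p = 3.9e-20). Rpl29 had 368.4 and 377.4 CPM in shCtrl and 700.0 and 701.2 CPM in shUSP9X, a log2 fold change of 0.91 (standard error 0.03). Rpl37, which is built into the core of the 60S subunit, had 232.5 and 229.2 CPM against 439.2 and 412.3 CPM, a log2 fold change of 0.88 (standard error 0.04). Neither gene's groups overlapped.

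Rpl5 and Rpl11, which join the 5S rRNA and, when free of the ribosome, bind Mdm2, differed in their values. By edgeR's quasi-likelihood test Rpl11 rose by 0.53 on the log2 scale (adjusted p = 6e-13) and Rpl5 by 0.08 (adjusted p = 0.033). With the correction for GC content and length described below, the order turned, with 0.26 for Rpl11 and 0.42 for Rpl5. Rpl9 (log2 fold change 0.06, adjusted p = 0.13), Rpl21 (0.02, adjusted p = 0.65) and Rpl34 (-0.002, adjusted p = 0.97) did not pass the threshold of edgeR's test. With the correction all 3 were lower, Rpl9 at -0.08 (adjusted p = 0.017 by edgeR), Rpl21 at -0.09 (0.028) and Rpl34 at -0.30 (1.1e-07). Rpl5, Rpl11, Rpl9, Rpl21, Rpl34, Rps6, Rps3a1 and Rps20 were named after their values had been seen.

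The 2 canonical genes that fell were Rpl10 and Rpl7, both by little. Rpl10 (chromosome X, 74270812 to 74273135), which joins the 60S subunit late and lies near the tRNA sites, had 474.0 and 416.8 CPM in shCtrl and 389.5 and 392.7 CPM in shUSP9X. The groups did not overlap, and edgeR's quasi-likelihood test gave a log2 fold change of -0.19 with a standard error of 0.04 (adjusted p = 4.9e-04). It was -0.09 without shCtrl replicate 1 and -0.28 without shCtrl replicate 2, and the call was kept in both. The counts of Rpl10 were fractional in all 4 libraries, and an intronless copy annotated as Rpl10-ps3 (chromosome 9, 50344201 to 50344968) held as many. Rpl10-ps3 had 446.1 and 511.9 CPM in shCtrl and 576.8 and 571.1 CPM in shUSP9X. The sum of both was 920.1, 928.7, 966.3 and 963.8 CPM, so that the shUSP9X libraries were the higher ones. With the counts of named pseudogenes added to their genes, the log2 fold change of Rpl10 was 0.06 (adjusted p = 0.079). The share of this sum assigned to Rpl10 was 51.5 and 44.9% in shCtrl and 40.3 and 40.7% in shUSP9X, and how reads were divided between the gene and its copy was not tested. Rpl7 had 1133 and 1100 CPM in shCtrl and 1072 and 1049 CPM in shUSP9X, with -0.07 as its log2 fold change in edgeR's quasi-likelihood test (standard error 0.03, adjusted p = 0.039). The call was lost when any library but shCtrl replicate 2 was left out (adjusted p = 0.089 without shCtrl replicate 1, 0.17 and 0.39 without shUSP9X replicates 1 and 2). With the correction for GC content and length described below Rpl7 was at -0.017 and did not pass (adjusted p = 0.58 by edgeR). With the length implied by the deposited table Rpl7 was at -0.068 and passed (adjusted p = 0.025 by edgeR). DESeq2 called 0 of the 3 falls, that of Rpl22l1 below included. The number of genes that fell was 5 without shCtrl replicate 2 and 1 without shUSP9X replicate 1.

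All 3 P stalk genes rose. Rplp0, the base of the stalk, had 2539 and 2471 CPM in shCtrl and 3414 and 3337 CPM in shUSP9X, a log2 fold change of 0.43 (standard error 0.03). Rplp1 and Rplp2, the acidic proteins that pair on it, rose by 0.47 and 0.36 on the log2 scale (standard error 0.04 for each). The adjusted p of the 3 genes was 2.2e-08 or lower in edgeR's quasi-likelihood test. With the correction their median was 0.15, and Rplp2 was at 0.06 and did not pass (adjusted p = 0.21 by edgeR).

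Paralogs replace a canonical ribosomal protein in some tissues, and 3 of the 6 genes were not expressed to a measurable degree. Rpl10l and Rpl39l, both known from testis, had 0 counts in every library, and Rpl3l, known from heart and skeletal muscle, had 1 count in 1 shUSP9X library. Rpl22l1 (chromosome 3, 28805436 to 28807424), the paralog of Rpl22, had 44.7 and 43.8 CPM in shCtrl and 35.0 and 41.0 CPM in shUSP9X. In edgeR's quasi-likelihood test it had a log2 fold change of -0.22 with a standard error of 0.08 (adjusted p = 0.017), and without shUSP9X replicate 1 it was -0.11 (adjusted p = 0.36). Rpl22 itself rose by 0.36 on the log2 scale, from 144.0 and 131.4 CPM to 178.5 and 176.0 CPM. In FPKM, a level scaled by transcript length and library size, Rpl22l1 stood at 29.2 and 31.2% of the level of Rpl22 in shCtrl and at 18.6 and 22.1% in shUSP9X. The 2 groups of ratios did not overlap, and no test of them was run. With the correction for GC content and length described below, Rpl22l1 was higher in shUSP9X (0.23 on the log2 scale, adjusted p = 0.013 by edgeR) and close to Rpl22 (0.26), so the difference within the pair was not seen there.

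The other pairs moved in different ways. Rps27l, known as a target of p53, did not pass edgeR's quasi-likelihood test (log2 fold change 0.10, adjusted p = 0.12), while Rps27 rose. With the correction for GC content and length Rps27l was higher (0.20, adjusted p = 0.0013 by edgeR), as were all 3 tested paralogs. At the length implied by the deposited table Rps27l (0.125, adjusted p = 0.042 by edgeR) and Rpl7l1 (0.397) passed. Rpl22l1 did not pass there (0.13, adjusted p = 0.17 by edgeR). The level of Rps27l was 45.6 and 45.8% of that of Rps27 in shCtrl and 27.6 and 28.9% in shUSP9X, in FPKM. Rpl7l1, which takes part in the making of the 60S subunit, rose by 0.49 on the log2 scale, and its level was 9.29 and 10.3% of that of Rpl7 in shCtrl and 15.0 and 13.3% in shUSP9X. The remaining partners rose, Rps4x by 0.27, Rpl3 by 0.27 and Rpl39 by 0.24 on the log2 scale. With the correction Rpl3 was at 0.03 (adjusted p = 0.34 by edgeR) and Rpl39 at 0.12, and with the length implied by the deposited table Rpl39 was at 0.07 and did not pass (adjusted p = 0.23). Rps4l was not analysed here.

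Levels between genes were compared per length, in FPKM. Rps2, on the 40S side where mRNA enters, was the most abundant with 2670 ± 33.8 FPKM in shCtrl and 3445 ± 24.7 in shUSP9X (SD, n = 2 each). Rplp0 (1874 ± 27.4 FPKM in shCtrl) and Rpl8 (1843 ± 16.2), which lies close to the peptidyl transferase centre, came next and did not differ beyond their spread in shCtrl. Rps24 followed with 1491 and 1339 FPKM in shCtrl, above Rpl23a, a protein at the exit of the peptide tunnel, with 1256 and 1217 FPKM. In shUSP9X that order was turned, with 1590 and 1581 FPKM for Rps24 and 1807 and 1804 FPKM for Rpl23a. The log2 fold changes were 0.18 for Rps24 and 0.58 for Rpl23a. With single libraries left out they ran from 0.105 to 0.259 for Rps24 and from 0.549 to 0.608 for Rpl23a. The tested genes spanned 62.5 to 3058 FPKM over all libraries with a median of 745, against 12.7 for all genes tested. At the low end stood Rps20 with 51.6 FPKM in shCtrl, where the deposited FPKM divides by a length of 3706 bases, and its level per library was 189.4 CPM.

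**Figure D3:**
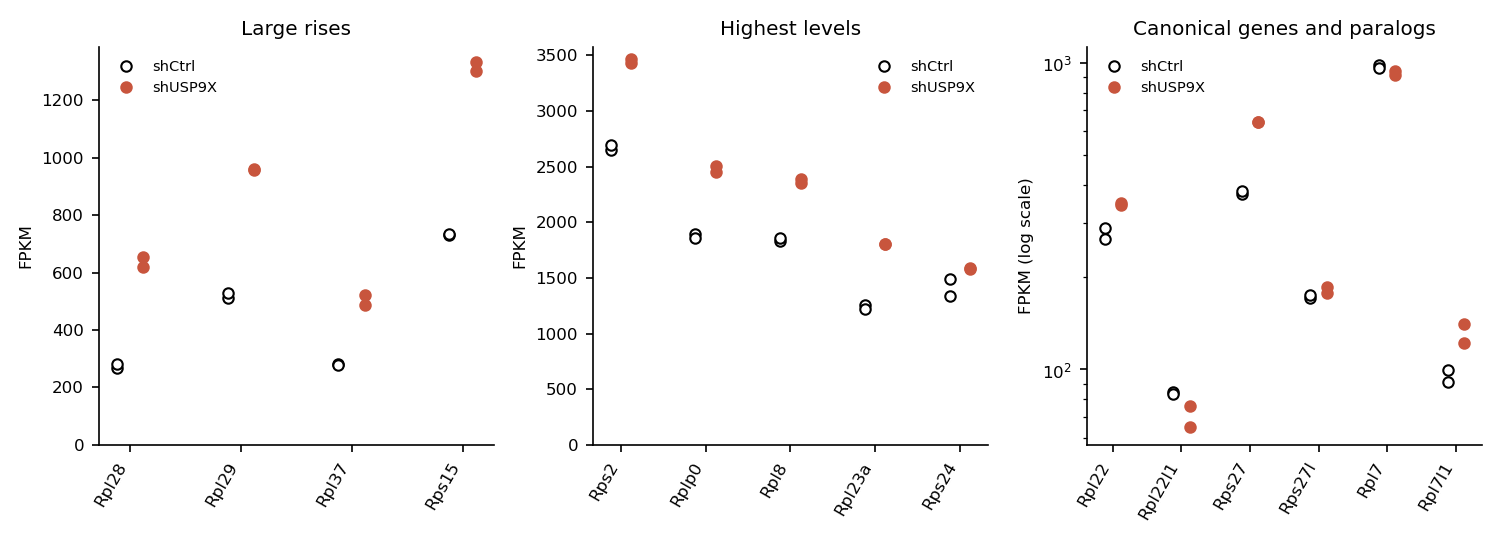
FPKM (y axis) per library for 4 of the 5 genes with the largest rises, the 5 most abundant genes and 3 pairs of a canonical gene and its paralog, the last on a log scale, with open points for shCtrl and filled points for shUSP9X. Filled points stand above open ones for every gene except Rpl22l1 and Rpl7, and Rpl23a passes Rps24.

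Ribosomal protein mRNAs are short and differ from the bulk of the genes in properties that go with the fold changes. Their median transcript length was 882 bases, against 3065 for all genes tested, and their median GC content 51.6%, against 50.2%. Across all genes tested the log2 fold change rose with GC content (Spearman's rho = 0.441) and fell with length (rho = -0.314). Across the 80 genes the values were 0.341 and -0.178. With the level in FPKM rho was 0.293 across all genes tested and -0.124 across the 80 genes. Genes are not independent replicates, and these points share libraries, so the correlations are descriptions. The 80 genes were split into 3 classes of GC content. In the lowest class (40.6 to 49.2%) the median log2 fold change was 0.27, with 21 of 27 genes higher and all 3 lower ones. It was 0.49 in the middle class and 0.46 in the highest, where 26 of 26 and 26 of 27 genes rose. Of all genes tested 33.8% rose and 33.6% fell, and shares of all genes within each class were not computed. With the correction for GC content and length the order turned, with medians of 0.346, 0.268 and 0.136 from the lowest class to the highest.

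With the trends on GC content and length taken out within each library, the median of the 80 genes was 0.25 and that of all genes 0.05. By edgeR's quasi-likelihood test 63 genes were then higher and 7 lower, where 36.8% of all genes were higher and 27.1% lower. Of the 73 genes that rose before, 61 were still higher, 9 did not pass and 3 were lower, Rpl13a and Rps18 among them. Rpl28 (0.98), Rpl37 (0.78), Rpl29 (0.59) and Rps15 (0.55) were at lower values than before. Rps20 went from 0.54 to 1.16, at the length of 3706 bases given above, and Rpl15 from 0.52 to 0.80. Rpl22l1 turned to 0.23 (adjusted p = 0.013, and 0.13 with an adjusted p of 0.17 at the implied length), whereas Rpl10 was at -0.29. The offset removes whatever follows GC content or length, whether it arose in the cells or in the libraries, and these cannot be told apart here.

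**Figure D4:**
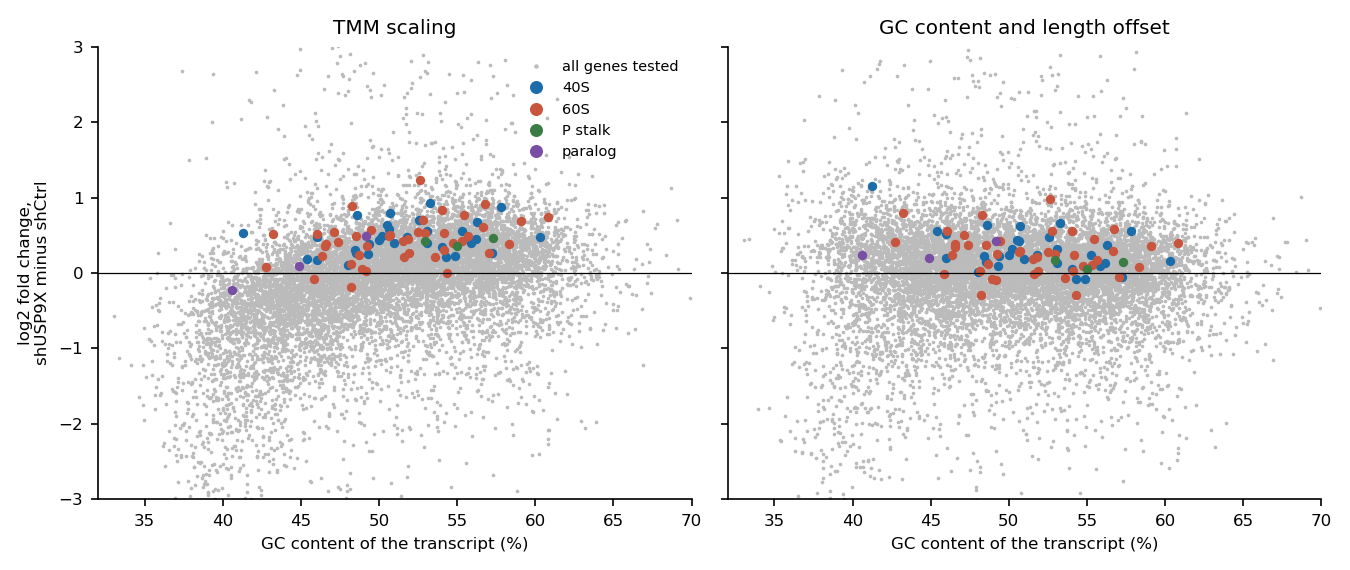
Log2 fold change (y axis, cut at -3 and 3) against the GC content of the transcript in percent (x axis) for all genes tested in grey and the ribosomal protein genes in colour, with TMM scaling on the left and the offset on GC content and length on the right. On the left the grey cloud bends downward at low GC content and most coloured points lie above 0, and on the right their median is 0.25.

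Some proteins of the ribosome or bound to it have names that the rule leaves out. Fau, which encodes a ubiquitin-like protein joined to a ribosomal protein, rose by 0.28 on the log2 scale, and under the offset it was at -0.05 (adjusted p = 0.20 by edgeR). Rack1, a scaffold on the 40S head, rose by 0.39, with 0.18 under the offset. Rpl36al had a log2 fold change of -0.02 (adjusted p = 0.75 by edgeR) and fell under the offset (-0.21, adjusted p = 0.00027). Rps27rt, an intronless copy of Rps27, had 7.04 and 2.37 counts in the shCtrl libraries against 22.2 and 19.3 in the others. The counts of both were fractional, and how reads were divided between them was not tested. Other mRNAs known for a TOP tract were counted too. Of 20 tested, 15 rose and 3 fell, with a median of 0.26, beside 33.8% and 33.6% of all genes tested. With the offset 13 were higher and 4 lower, with a median of 0.18, beside 36.8% and 27.1% of all genes tested. The elongation factor genes Eef1d (0.64) and Eef1g (0.58) rose most. Npm1 (-0.67), which encodes a nucleolar chaperone, and Nap1l1 (-0.15) fell. Under the offset Npm1 was at -0.34 and Nap1l1 at 0.65. The lists overlap, and Rack1, Fau, Npm1, Nap1l1, Eif6 and Eif4ebp2, for example, are counted in more than 1 of them.

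The genes that make ribosomes were higher in the majority and held some of the larger falls. Their counts stand beside 33.8% higher and 33.6% lower among all genes tested, or 36.8% and 27.1% under the offset. Of 14 tested genes of the RNA polymerase I machinery, which transcribes rRNA, 11 rose (78.6%) and 2 fell (14.3%), with a median of 0.50. With the offset 9 were higher and 2 lower, with a median of 0.39. Polr1b, a large core subunit, rose by 1.05 on the log2 scale and Polr1h by 0.86. Taf1d, a subunit of the promoter factor, fell by 1.38 and Polr1f by 0.87, and Polr1f was at -0.08 under the offset (adjusted p = 0.52 by edgeR). Of 8 core proteins of small nucleolar RNPs, which guide the modification of rRNA, 6 rose and 2 fell, with Gar1 at 1.21, Nhp2 at 1.04, Dkc1 at -0.68 and Nop58 at -1.03. Under the offset Gar1 was at 0.90, Nhp2 at 0.75, Dkc1 at -0.37 and Nop58 at -0.75. Gar1, Nhp2 and Dkc1 belong to the same kind of complex, and Nop58 to another.

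The 42 genes of the small subunit processome and 40S maturation had 28 that rose (66.7%) and 7 that fell (16.7%), with a median of 0.42, and 33 higher and 4 lower under the offset. Rrp9 (1.16) and Noc4l (1.01) were at one end, and Mphosph10 (-1.61) and the helicase gene Ddx10 (-1.37) at the other. Among 50 genes of 60S maturation 36 rose and 10 fell, with a median of 0.50, and under the offset 45 were higher and 2 lower. Before the offset Nop2, an rRNA methyltransferase, was at 1.13 and the helicase gene Ddx24 at 1.07. Ncl, which encodes the nucleolar protein nucleolin, fell by 0.58 and was at 0.41 under the GC content and length offset. Npm1, also in this list, fell by 0.67 and was still lower under the offset, at -0.34. Chaperones that escort single ribosomal proteins rose in 6 of 7 cases (median 0.50), and Nap1l1 was the exception. Grwd1, the chaperone of Rpl3, led at 1.10, and Tsr2, the chaperone of Rps26, was at 0.65. With the offset 6 of them were higher and 0 lower, and the exception changed. Nap1l1 was then at 0.65, and Aamp was at -0.07 and did not pass (adjusted p = 0.19 by edgeR).

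The lists of regulators depended on the correction. Of 13 genes for regulators of TOP mRNAs 6 rose (46.2%) and 4 fell (30.8%), near the shares of all genes tested, with a median of 0.16. Under the offset 9 were higher and 1 lower, with a median of 0.39. The list held Mlst8, a subunit of the mTOR complexes, at 0.95, Eif4ebp2 at 0.68, Tia1 at -1.02 and Rps6kb1, the gene of S6 kinase 1, at -1.05. Rps6kb1 was at -0.01 under the offset (adjusted p = 0.88, edgeR's quasi-likelihood test). Tia1 was then at -0.32 (adjusted p = 0.0015 by edgeR), Mlst8 at 0.82 and Eif4ebp2 at 0.70. Of 7 transcription factors known at ribosomal protein promoters 3 rose (42.9%) and 4 fell (57.1%), and under the offset 3 were higher and 1, Gabpa, lower, beside 33.8% and 33.6% of all genes tested, or 36.8% and 27.1% under the offset. Before the offset Myc stood at 0.97, its partner Max at 0.47, Tbpl1 at -0.41 and the ETS factor Gabpa at -1.08. Under the offset Gabpa was at -0.34 and Tbpl1 at -0.12 (adjusted p = 0.24 by edgeR), and Sp1, named after its values had been seen, turned from -0.37 to 0.43. Myc had 218.9 ± 1.24 CPM in shUSP9X and 111.5 ± 2.97 CPM in shCtrl (SD, n = 2 each).

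The 2 most similar gene families were set beside the cytosolic ribosomal proteins. The proteins of the mitochondrial ribosome, also encoded in the nucleus, rose in 53 of 78 cases (67.9%) and fell in 2 (2.56%), with a median of 0.36, beside 33.8% and 33.6% of all genes tested. Mrps18b (0.94) and Mrpl38 (0.90) rose most, and Mrpl1 (-0.28, with 0.30 under the offset) and Mrpl33 (-0.17) fell. Their share of the counts was 0.336 and 0.331% in shCtrl and 0.430 and 0.426% in shUSP9X. Genes listed as translation initiation factors rose in 30 of 47 cases (63.8%) and fell in 13 (27.7%, close to the share of all genes). Their median was 0.28. Eif3g was at 0.95, Eif2b4 at 0.90, Eif2s2, a subunit of eIF2, at -1.37 and Eif5b, which joins the subunits, at -1.76. The genes of this list share an Eif symbol, and not all of them encode initiation factors. Of such genes Eif4ebp1 (0.28), Eif4ebp2 (0.68), Eif5a (0.75) and Eif6 (0.88) rose. Eif5a2 (-0.88) fell, and Eif4enif1 (0.07) did not pass. Counts and medians without these genes were not computed. Under the offset 44 mitochondrial ribosomal protein genes were higher and 5 lower. In the initiation factor list 31 genes were higher and 8 lower. Of all genes tested 36.8% were then higher and 27.1% lower. Eif5b was at -0.97 under the offset. The medians were then 0.24 for the mitochondrial ribosome and 0.29 for the initiation factor list, next to 0.25 for the cytosolic ribosome. Differences between the families were not tested. The lowest log2 fold change among the 80 cytosolic genes was -0.22.

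**Figure D5:**
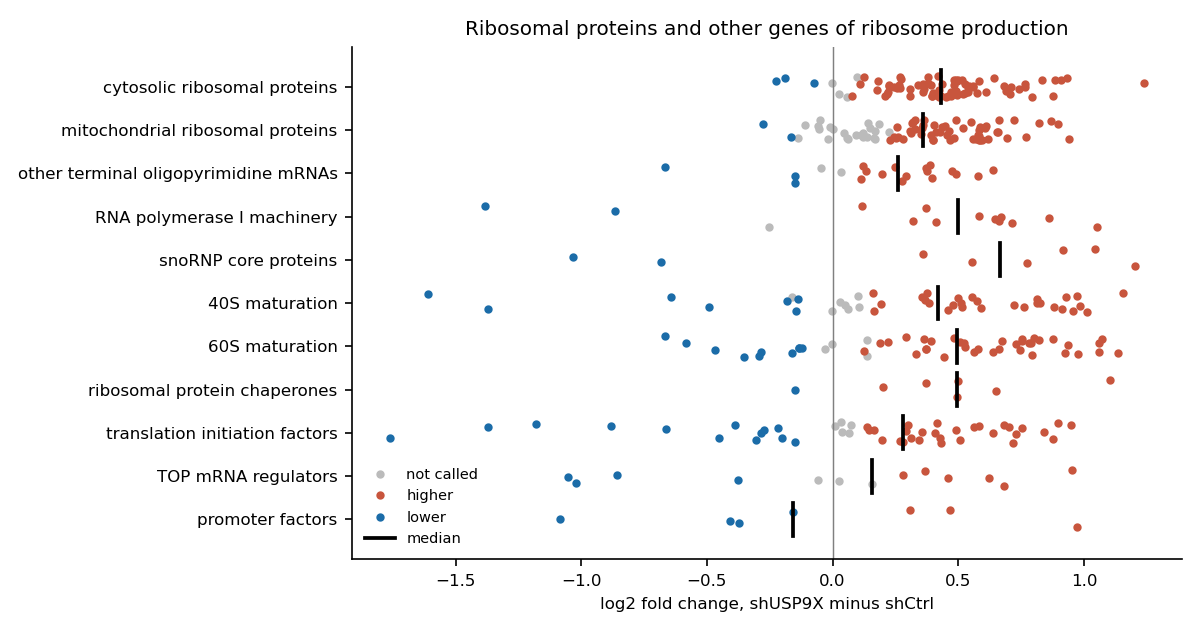
Log2 fold change (shUSP9X minus shCtrl, x axis) of each tested gene, with 1 row of points for each of 11 gene lists, coloured by the call at an adjusted p under 0.05, with the median as a black line. Points of the cytosolic ribosomal proteins lie between -0.22 and 1.24, and those of the initiation factors reach -1.76.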

How the data were processed

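Total RNA was enriched for polyadenylated RNA, made into libraries and sequenced on a NovaSeq instrument, per the labels. The authors mapped the reads to GRCm38, and their processing notes name fastp 0.18.0, Bowtie2 2.2.8, HISAT2, StringTie 1.3.1 and RSEM, without a role for each. For each gene and library the authors deposited an estimated count, which is not normalized, and FPKM, which is scaled by length and library size. Per library, 6.4 to 6.69% of the count values were not whole, and all were rounded before testing.

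Counts were filtered with filterByExpr, scaled by TMM and tested over 11448 genes in R 4.3.3 with edgeR 4.0.16 (quasi-likelihood test), with Benjamini-Hochberg adjustment. CPM values are TMM-normalized. Groups came from the labels. Replicate numbers were treated as names only, except in the alternatives with a replicate block. The design planned for counts was kept. Coordinates, transcript length and GC content are from GENCODE M21 (GRCm38), known for 99.8% of the genes tested. The length behind an FPKM was computed as counts over FPKM. Standard errors are those of edgeR's fit, and SDs are between the 2 libraries of a group.

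The genes and lists were chosen with earlier results of these data known. Named genes are Usp9x, the paralogs and their partners, the 5 highest mean FPKM, the 5 largest rises and up to 5 falls among genes with an adjusted p under 0.05 and no overlap between groups, the stalk genes, the genes outside the rule, and of each other list the 2 largest rises and falls among the called genes. Others were named after their values were seen. A few of these genes are not reported here.

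Alternatives were DESeq2 1.42.0, other scalings, other filters, limma 3.58.1 trend tests on log2(FPKM + 1) and log2(FPKM + 0.1), a replicate block, a loess offset (span 0.3) on GC content and length, pseudogene counts added to their genes, and each library left out. On simulated data with 200 of 11448 genes changed, edgeR recovered 93% and called 7 unchanged genes. With a GC content trend added, edgeR called 6302 unchanged genes, and 7 once the offset was used. That trend was linear, without a trend on length, and followed the same GC values that the offset takes out. The run therefore cannot show whether the offset suits the measured libraries.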

Additional observations from a re-analysis of the deposited data

How the results depend on the processing

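The number of ribosomal protein genes that rose was 73 and lay between 60 and 76 in all alternatives at an adjusted p under 0.05, with 70 to 76 when single libraries were left out. At the cutoff of the study's methods 16 rose and 0 fell. The number that fell was 3, with 7 under the GC content and length offset, 7 with the replicate block and that offset, 1 to 5 without single libraries, and 0 by DESeq2, where 1 was lower at an unadjusted p under 0.05. The median log2 fold change of 0.43 was 0.245 with the offset and 0.245 with block and offset. An offset with the length implied by the deposited table, added after the data had been seen because some annotated lengths were far from it, gave 60 higher, 9 lower and a median of 0.199. The replicate block alone left the counts at 73 and 3. The deviations of same-numbered libraries did not go together (correlation of -0.045 over all genes). A pairing by number was thus not seen, though 2 libraries a group cannot settle it. The difference in the share of counts, 1.40 percentage points, was 1.31 without mitochondrially encoded genes and 2.88 as a share of summed FPKM (from 12.1 to 15.0%, a ratio of 1.24 beside 1.296 for counts), and stayed between 1.37 and 1.42 with each library left out. Rpl22l1 reversed to 0.233 with the offset, 0.231 with block and offset and 0.130 with the implied length (adjusted p = 0.17, not passed), and Rpl10 to 0.062 with pseudogene counts added. Of 396 alternative values for 22 named genes, 368 kept their direction and side of the threshold. Apart from the constructions of the offset and of the added copies, the causes were not tested. With 2 libraries a group, the spread was estimated across all genes.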
